A study of Mus musculus with 6 samples.

Results

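The cytosolic ribosome is built from a large (60S) and a small (40S) subunit, each a scaffold of ribosomal RNA decorated with ribosomal proteins that are encoded by single nuclear genes scattered over the genome. Their mRNAs are short, are among the most abundant of any cell, and start with a run of pyrimidines (the 5′ TOP tract) through which their translation is controlled by mTORC1 and La-related proteins. Heart muscle adds tissue-specific paralogs, of which Rpl3l, a striated-muscle copy of Rpl3, is the best known. The set described here holds every gene of the deposited table whose symbol is Rpl or Rps with a number and at most 1 letter, Rplp0 to Rplp2, or Rpsa, and whose mean level over the 6 libraries was at least 1 FPKM (fragments per kilobase of transcript, scaled to the size of the library). It had 79 members among 21989 genes, 48 of the large and 31 of the small subunit. Of the 81 symbols of this pattern, 2 fell below the minimum: Rpl10l, listed at 0 in every library, and Rpl39l, with a mean of 0.459 FPKM. The lowest members inside the limit were Rpl32l, with a mean of 2.26 FPKM, and Rps28, with 6.86 FPKM. Rps3a1, a small-subunit gene at 707.9 to 1091 FPKM, has a symbol outside the pattern and is no member.

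The libraries were made from left ventricle of male specific-pathogen-free C57BL/6 mice. The 3 ISO libraries came from mice given ISO, as the labels abbreviate the agent, under the skin at 10 mg/kg/d over 3 weeks, a model of heart failure. The 3 saline libraries came from mice given a matching volume of normal saline. Polyadenylated mRNA was sequenced. The labels speak of biological repeats and do not say how many animals a library holds. The p-values below may therefore not reflect the full spread between animals. In bulk tissue, fewer cells of a type and less RNA per cell cannot be told apart.

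The library of saline replicate 3 stood apart from the other 5 and has to be named before any result. It was the shallowest, with 2776152 reads against 5154283 to 9862363 in the others, and it had the largest share of its reads in these genes. For that reason the fits of the members, their groups and the related gene lists are given with all 6 libraries and again without saline 3. Cardiomyocyte markers were abundant in every library, at a summed 12858 to 47151 FPKM over 10 genes.

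Promoter sequences of members that the results turn on are shown first, because the genes are usually described through their start sites. Each window runs from 40 bases before to 20 after the RefSeq transcript start on GRCm38.p6, read along the gene's strand. Capitals mark CTTTC, a short piece of a pyrimidine tract, and CCGGAAG or its reverse complement CTTCCGG, the core recognised by ETS-family factors. Rpl4 (chr9:64173347-64173406, plus strand), Rps4x (chrX:102189372-102189431, minus), Rpl6 (chr5:121204461-121204520, plus), Rps7 (chr12:28635934-28635993, minus) and Rpl38 (chr11:114668540-114668599, plus) are members described below by their level in each library. Rps10 (chr17:27635225-27635284, minus), Rps18 (chr17:33955646-33955705, minus) and Rps28 (chr17:33824543-33824602, minus) had far lower levels than most members.
Rpl4: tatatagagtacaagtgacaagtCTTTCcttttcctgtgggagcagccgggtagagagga
Rps4x: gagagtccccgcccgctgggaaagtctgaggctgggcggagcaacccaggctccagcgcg
Rpl6: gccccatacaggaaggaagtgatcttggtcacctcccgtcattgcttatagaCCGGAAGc
Rps7: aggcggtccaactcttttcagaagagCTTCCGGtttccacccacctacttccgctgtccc
Rpl38: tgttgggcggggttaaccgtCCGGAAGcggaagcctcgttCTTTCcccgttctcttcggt
Rps10: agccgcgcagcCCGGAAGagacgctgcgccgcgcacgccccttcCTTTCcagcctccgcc
Rps18: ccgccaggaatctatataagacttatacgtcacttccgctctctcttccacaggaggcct
Rps28: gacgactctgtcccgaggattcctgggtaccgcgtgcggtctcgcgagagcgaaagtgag

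Of the 79 members, 59 had a promoter of 300 bases in the RefSeq table. CTTTC on the gene's strand lay within 30 bases of the start in 19 of the 59, or 32.2%, against 6.20% of 9399 promoters of tested genes. CCGGAAG on either strand was present in 39.0% of the members' promoters and 17.6% of all. TATAAA on the gene's strand was present in 10.2% and 4.80%. These are matches of letters and say nothing of bound factors. Members with and without CTTTC near the start had median log2 fold changes of -0.18 and -0.12 between ISO and saline, and 0.16 and 0.21 without saline 3, so the groups cut by this motif lay close together on both counts.

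The ribosomal protein genes held a like share of the measured transcripts in 5 libraries and a larger one in saline 3. They made up 10.4%, 10.8% and 18.6% of the summed FPKM of all genes in saline replicates 1, 2 and 3. In ISO replicates 1, 2 and 3 they made up 12.8%, 12.2% and 11.5%. All 3 ISO libraries thus lay above saline 1 and saline 2 and below saline 3. As a share of reads, which does not weight by gene length, the values were 3.98%, 3.90% and 8.47% in saline and 4.82%, 4.58% and 4.35% in ISO, in the same order. The widest 95% Wilson binomial interval, that of saline 3, was 8.43% to 8.50% and covers counting error only. The group means of the log2 FPKM share differed by -0.07 (ISO minus saline) with all 6 libraries and by 0.20 without saline 3. The large subunit held 1.51 to 1.73 times the summed FPKM of the small subunit, with no separation of the groups.

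**Figure D1:**
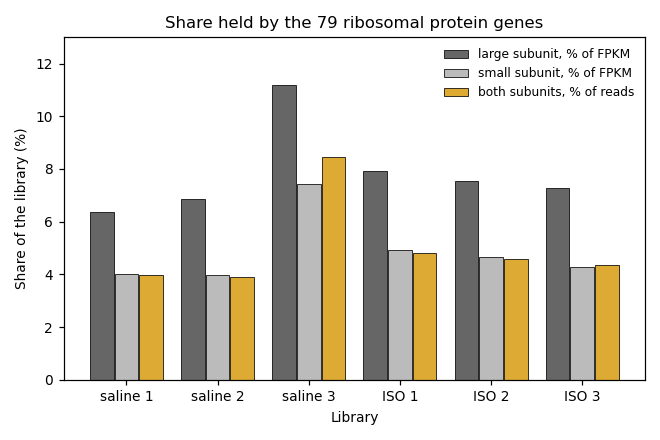
Share of each library (%) held by the 79 ribosomal protein genes, by library; dark and light grey bars are the large and small subunit as a share of summed FPKM, and yellow bars are both subunits as a share of reads. Saline 3 has the tallest bars, with 8.47% of reads, and the 3 ISO libraries lie above saline 1 and 2.

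Levels of single members spanned a wide range. Their mean FPKM had a median of 728, against 8.90 over the 12269 genes with a mean of at least 1 FPKM. Means exceeded 100 FPKM for 71 members and 1000 FPKM for 18. The highest were Rps15 of the decoding region (mean 2307 FPKM, 1527 to 5083), Rplp1 of the P stalk (mean 2199.7, 1199 to 5762) and Rpl28 (mean 2143, 1729 to 3471). Next came Rpl26 at the exit tunnel (mean 2083.5 FPKM), Rpl35 (1771), Rpl41 (1761) and Rpl13a (1695). The order among these is not resolved, since their ranges over libraries overlap. Leaving out saline 3, the coefficient of variation over the 5 remaining libraries had a median of 12.3% for the members and 21.4% for all tested genes, and with it 33.0% and 33.5%.

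Saline 3 was the highest of the 6 libraries for 60 of 79 members, against 22.4% of all tested genes. On the log2(FPKM + 1) scale it exceeded the mean of saline 1 and 2 by a median of 0.97, while over all tested genes it lay 0.38 below it (median -0.38). The excess passed 2-fold for 37 members and 3-fold for 15. It was greatest for Rps29, a zinc-binding protein of the small subunit, at 5057 FPKM in saline 3 against 1156 and 833 in saline 1 and 2. Rplp1 stood at 5762 against 1499.9 and 1267, and Rps23, a protein of the decoding centre, at 3769 against 1041 and 798. The excess was not shared by all members. Rpl6 was at 414.8, 420.4 and 419.0 FPKM in saline 1, 2 and 3, and Rpl24 at 903, 928 and 921.5. In saline 3, 6 members lay below the mean of saline 1 and 2, namely Rpl32l, Rps27, Rps27a, Rps7, Rps18 and Rps10.

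Outside the members, saline 3 lay lower against saline 1 and 2 the longer the length class. Among the 79 members, length and the excess of saline 3 had a Spearman correlation of -0.21. Members had a median recovered length of 795 bases (291 to 5136) and all tested genes one of 3414. Among genes under 800 bases, saline 3 lay a median 1.04 above saline 1 and 2 for 40 members and 0.60 above for 394 other genes, in log2 units. Between 800 and 2000 bases the medians were 0.84 for 32 members and 0.0033 for 2412 others. At 2000 bases or more they were 1.11 for 7 members and -0.50 for 9376 others. In every class of recovered length the members thus lay higher in saline 3 than the other genes of that class. The recovered length is the one implied by the FPKM values and need not be that of the mRNA. The classes therefore do not set length aside. The 8 genes listed as skeletal muscle markers, Ckm among them, summed to 1020 FPKM in saline 3 against 212 and 318 in the other saline libraries. Only 5 of the 8 reached a mean of 1 FPKM, so the sum may rest on few genes. It is no measure of skeletal muscle content. Adipocyte markers summed to 4735 FPKM against 2411 and 2699.5, although their median difference was -0.45 in log2 units, and ISO 3 had a like sum of 4567. The part of length, depth or tissue make-up in the excess was not tested.

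**Figure D2:**
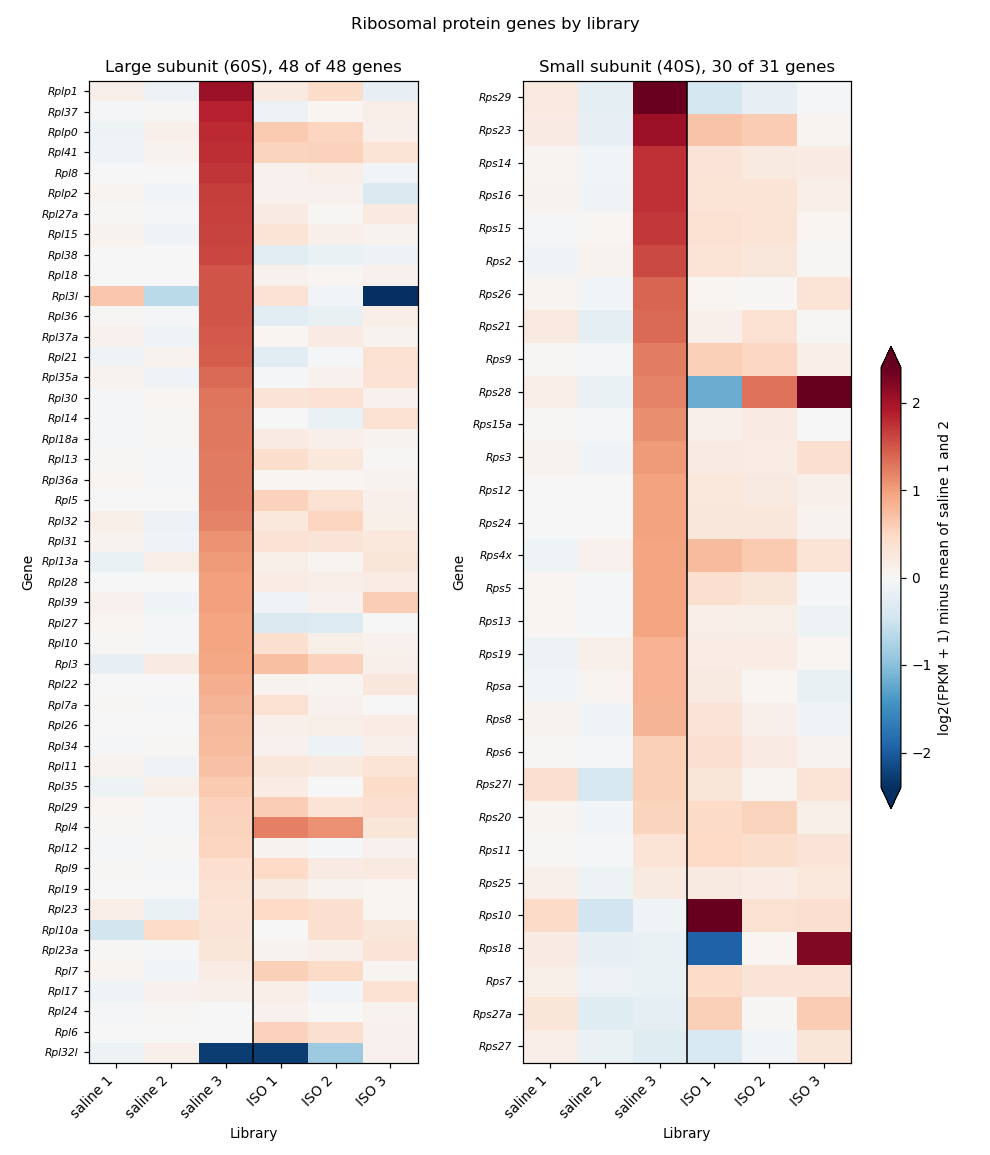
Heat map of 78 of the 79 members (rows, by subunit, ordered by saline 3) in 6 libraries (columns); colour is log2(FPKM + 1) minus the mean of saline 1 and 2, and the scale is clipped at its ends. The saline 3 column is red and the ISO columns are pale for most members, and Rps10, Rps18, Rps28, Rpl3l and Rpl32l have deep cells in the ISO columns.

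No member passed the test between ISO and saline. With limma on log2(FPKM + 1), 0 of 79 members had an adjusted p under 0.05, as did 0% of the 12269 genes tested, and the smallest adjusted p among members was 0.699. At an unadjusted p under 0.05 the count was 0 of 79 members, against 6.31% of all tested genes, and limma-voom on recovered reads also called 0. The log2 fold change was above 0 for 25 members and below 0 for 54, against 68.1% above 0 over all tested genes. Its median was -0.13 for the members and 0.20 for all tested genes. The groups did not overlap, with ISO higher, for 2 members (Rpl6 and Rps7), against 12.8% of tested genes. They did not overlap, with ISO lower, for Rpl38 alone, against 3.72%.

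Without saline 3 the sign of the log2 fold change turned for 47 members. Of the 79, 70 then had a log2 fold change above 0, against 59.1% of all tested genes, with a median of 0.19 against 0.06. The ISO libraries all exceeded saline 1 and 2 for 33 members, against 18.3% of tested genes, and all lay below them for 1 member, Rpl38, against 9.61%. Among the 9 members below 0 were Rpl3l, Rpl32l, Rpl27, Rps29, Rpl38, Rpl36, Rplp2 and Rps27. At an unadjusted p under 0.05 there were 4 members (Rpl4, Rps4x, Rpl29 and Rpl41), against 10% of tested genes, and 0 after adjustment (smallest adjusted p 0.438, limma). Leaving out a library after seeing that it stands apart is a choice made on these data, and both readings rest on 5 or 6 libraries. When all 6 libraries were kept with limma's sample quality weights (0.0772 for saline 3, 0.449 for ISO 3, 5.50 for ISO 2), 63 members lay above 0. The weights were estimated from these same libraries and count saline 3 and ISO 3 least. Calls under them are thus not independent of which libraries stood apart. Under those weights 2 members were called, Rpl4 (log2 fold change 1.05, adjusted p = 0.0192) and Rps4x (0.67, adjusted p = 0.0378), against 768 genes or 6.26% of all tested genes.

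**Figure D3:**
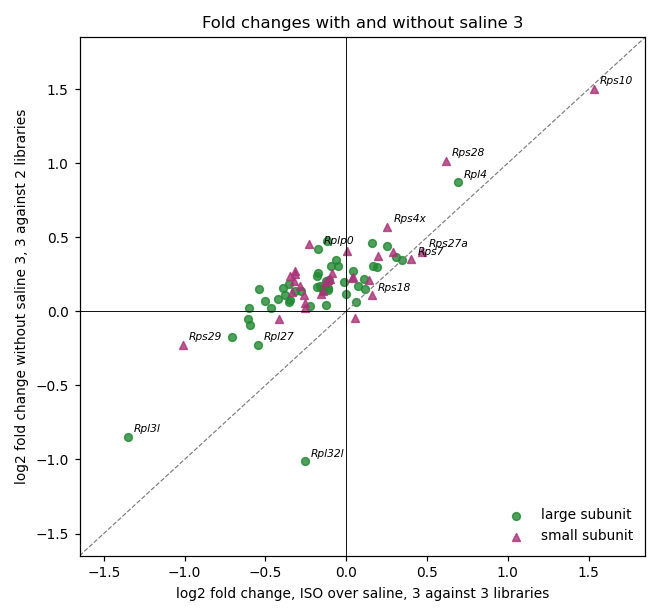
Log2 fold change of ISO over saline for the 79 members, with 3 against 3 libraries (horizontal) and without saline 3 (vertical); circles are large and triangles small subunit genes, and the dashed line marks equal values. Most points lie above the dashed line, and 70 lie above 0 on the vertical axis against 25 right of 0 on the horizontal one.

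Rpl4 lines the peptide exit tunnel and had the smallest p of the members in the direction of ISO. It stood at 511, 492 and 731 FPKM in saline replicates 1 to 3 and at 1167, 1073 and 616 FPKM in ISO replicates 1 to 3. ISO 1 and 2 lay above all saline libraries, and ISO 3 lay between saline 1 and saline 3. The group means were 578 ± 133 and 952 ± 295 FPKM (SD, n = 3), with a log2 fold change of 0.69 (SE 0.33, limma adjusted p = 0.699). Without saline 3 the log2 fold change was 0.87 (SE 0.31, adjusted p = 0.438). Rpl4 lies at chr9:64173387-64178562 (GRCm38.p6).

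Rps4x is the X-linked gene of a small-subunit protein. Its levels were 484, 555 and 1000.3 FPKM in saline and 878, 801.5 and 649 FPKM in ISO. All ISO libraries exceeded saline 1 and 2, and saline 3 exceeded all of them. The log2 fold change was 0.26 (SE 0.33, limma adjusted p = 0.764), and 0.57 (SE 0.21, adjusted p = 0.447) without saline 3. Rpl29, which binds heparin as well as being a 60S protein, had 140.4, 133 and 201 FPKM in saline and 205, 172 and 180.5 in ISO. Rpl41, the shortest ribosomal protein, had 1044, 1159 and 3775 FPKM in saline and 1590.1, 1614 and 1386 in ISO. For both, saline 3 lay far above the other saline libraries relative to their spread, and without it every ISO library was above saline (log2 fold changes 0.44 and 0.47).

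Rpl6 and Rps7 were the members whose groups were separate with ISO higher. Rpl6 had 414.8, 420.4 and 419.0 FPKM in saline and 610.4, 547 and 451 in ISO, with its 3 saline libraries close together. Its group means were 418 ± 2.94 and 536 ± 80.5 FPKM (SD, n = 3), with a log2 fold change of 0.35 (SE 0.22, limma adjusted p = 0.699). Rps7, a small-subunit protein linked to Diamond-Blackfan anemia, had 521, 431 and 424 FPKM in saline and 643, 587.5 and 584 in ISO. Its saline libraries were all below its ISO libraries as well, with a log2 fold change of 0.40 (SE 0.22) and the same adjusted p. Rpl7, another 60S protein, had 745, 687 and 805 FPKM in saline and 1064, 980.5 and 753 in ISO, and its groups overlapped through ISO 3 and saline 3. Without saline 3, Rpl6, Rps7 and Rpl7 kept log2 fold changes of 0.35, 0.35 and 0.37.

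Members with lower values in ISO were mostly those in which saline 3 was extreme. Rps29 had 1156, 833 and 5057 FPKM in saline and 731, 853 and 950.4 in ISO, for a log2 fold change of -1.01 (SE 0.64, limma adjusted p = 0.699). Without saline 3 the value was -0.22. Rpl38, a 60S protein known from mice with patterning defects, had 649, 635 and 1943 FPKM in saline and 541, 574 and 592 in ISO. Here every ISO library lay below every saline library, also once saline 3 was left out, with log2 fold changes of -0.71 and -0.17. Rpl27 had 529, 498 and 995 FPKM in saline and 403, 407 and 512.5 in ISO. Its ISO 3 value lay between saline 1 and 2, and the log2 fold change was -0.54, or -0.23 without saline 3. Rpl36 (-0.59) and Rplp2 (-0.61) had values of -0.09 and -0.05 without saline 3, so little of their difference was left.

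**Figure D4:**
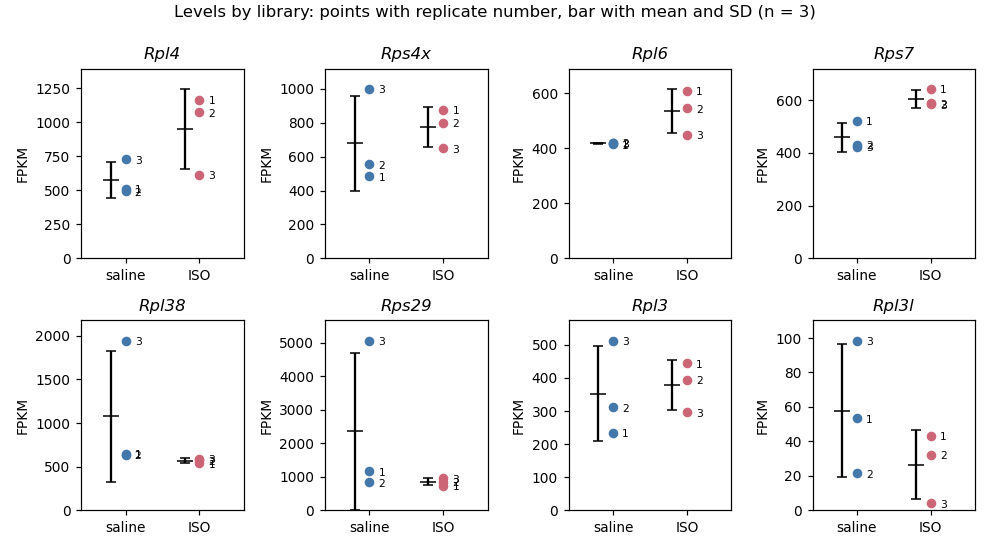
FPKM of 8 members by group, each point a library with its replicate number, and the bar beside it the mean and SD of 3 libraries. Rpl6 and Rps7 have separate groups, Rpl38 and Rps29 have 1 high saline library each, and Rpl3l is lowest in ISO 3.

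The members were also grouped by their role in the ribosome. The 5S particle, in which Rpl5 and Rpl11 ride with 5S rRNA and hold Mdm2 when free, had 241, 244 and 571 FPKM of Rpl5 in saline and 358, 312.5 and 262 in ISO. Rpl11 had 571, 511 and 876.5 FPKM in saline and 657, 626 and 679.7 in ISO. For both, ISO lay above saline 1 and 2 and below saline 3, and their log2 fold changes of -0.06 and 0.04 became 0.35 and 0.27 without saline 3. The P stalk recruits elongation factors. Its members Rplp0, Rplp1, Rplp2 and the base protein Rpl12 were all below 0 (median -0.36), and 3 of 4 were above 0 without saline 3 (median 0.10). Saline 3 exceeded saline 1 and 2 there by a median of 1.73 log2 units, more than the 0.97 over all members.

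The 8 proteins at the exit tunnel had 3 members above 0 and a median of -0.01, and 8 above 0 with a median of 0.19 without saline 3. The 5 members at the decoding centre and mRNA channel had 1 above 0 (median -0.23), and 5 without saline 3 (median 0.26). Of 12 genes linked to Diamond-Blackfan anemia in people, 3 were above 0 (median -0.13), and 10 without saline 3 (median 0.17). Rps27a, made as a fusion with ubiquitin, had 270.1, 179.99 and 190.0 FPKM in saline and 330.1, 223.6 and 334.8 in ISO, with overlapping groups and a log2 fold change of 0.47 (0.40 without saline 3). The large and the small subunit had medians of -0.15 and -0.11, and of 0.16 and 0.22 without saline 3. None of these groups held a called gene.

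Paralogs that replace a ribosomal protein were compared with their parent gene in each library, in 4 pairs with both genes at 1 FPKM or more. Rpl3l stood at 53.5, 21.3 and 98.4 FPKM in saline and at 43.3, 32.2 and 3.94 FPKM in ISO. The last value, from ISO 3, rests on 65 reads and has a 95% exact Poisson interval of 3.04 to 5.03 FPKM. Rpl3, its parent, had 235, 311 and 513 FPKM in saline and 444, 395 and 296 in ISO. Rpl3l was thus 22.8%, 6.85% and 19.2% of Rpl3 in saline and 9.75%, 8.16% and 1.33% in ISO, so the groups overlapped at saline 2. The log2 ratio differed by -1.51 (ISO minus saline; two-sided exact permutation test, p = 0.3, adjusted over 4 pairs 0.6), where 3 against 3 libraries cannot give less than 0.1. Without saline 3 the difference was -1.31, and without ISO 3 it was -0.69. Rpl3l lies at chr17:24727826-24736143, and Rpl3 at chr15:80077781-80083406.

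ISO 3, where Rpl3l was lowest, also had the lowest sum of cardiomyocyte markers, at 12858 FPKM against 21455 and 22034 in the other ISO libraries and 30328 to 47151 in saline. The listed skeletal muscle markers, Ckm among them, summed to 78.9 FPKM in ISO 3 and to 407 and 476 in the other ISO libraries. Their sum was 1020 FPKM in saline 3, the library in which Rpl3l was highest. Adipocyte markers summed to 4567 FPKM in ISO 3 against 1279 and 1300 in the other ISO libraries.

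Over the groups, all 10 cardiomyocyte markers had log2 fold changes below 0 (median -0.79, and -0.62 without saline 3). Of 5 tested skeletal muscle markers 3 were below 0 (median -0.64, and 0.27 without saline 3), and of 7 adipocyte markers 5 (median -0.22, and -0.41). Fibroblast markers were above 0 for 7 of 8 (summed 629 to 1050.2 FPKM in saline, 1538 to 1929 in ISO), and macrophage markers for 8 of 8 (294 to 605 and 564 to 841). Red cell markers were above 0 for 8 of 8, at 3254 to 6705 FPKM in saline and 14094 to 29595 in ISO. Endothelial markers summed to 313 to 709 FPKM in saline and 631 to 801 in ISO, and lymphocyte markers to 13.3 to 28.2 and 18.0 to 76.2. Of the 8 lymphocyte markers, 4 were at 0 in saline 3, the shallowest library, Cd3e, Cd3g and Cd3d among them. The part of cell make-up in the values of Rpl3l or of any other member was not tested.

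The other 3 pairs gave smaller differences. Rps27l, which p53 induces, was 4.20% to 9.12% of Rps27 in saline and 5.12% to 7.87% in ISO, with a difference of -0.01 in log2 ratio (exact p = 1). Rpl22l1 was 95.7%, 71.5% and 23.1% of Rpl22 in saline and 79.5%, 80.9% and 90.4% in ISO, with a difference of 0.62 (exact p = 0.5, adjusted 0.667). That difference came with the low saline 3 value and was 0.01 without it. Rpl36al was 29.9% to 50.8% of Rpl36a in saline and 28.9% to 37.8% in ISO, with a difference of -0.27 (exact p = 0.3, adjusted 0.6).

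Some members were at levels far below the rest, and these were noticed only after the values were seen. Rps18, Rpl10a and Rps28, core proteins needed by every ribosome, had means of 9.12, 9.68 and 6.86 FPKM, and Rps10 one of 44.4 FPKM, against the median of 728. These 4 genes lie within chr17:27630415-33955665 on GRCm38.p6. Of the other 3 members on chromosome 17, Rps2 had a mean of 883 FPKM, Rpl36 one of 903 FPKM and the paralog Rpl3l one of 42.1 FPKM. Of the 20 coding genes around each member, 10 on each side, a median of 14 reached 1 FPKM. Over all coding genes matched, 57.7% reached that level. The number was 3 for Rpl10a, 3 for Rps18, 7 for Rps28 and 10 for Rps10. No other member had as few as 3. Few such neighbours also went with high levels: Rps12, with 6, had a mean of 1275 FPKM, Rpl21, with 7, one of 231 FPKM and Rps4x, with 8, one of 728 FPKM.

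The low members also varied most between libraries. Rps10 had 18.5, 9.33 and 12.4 FPKM in saline and 191, 17.3 and 17.5 in ISO. The 191 FPKM of ISO 1 come from 1968 reads (95% exact Poisson interval 183 to 199.97), so that library was outside the range of the other 5 by more than counting error. Rps18 had 6.82, 4.99 and 5.16 FPKM in saline and 0.776, 6.11 and 30.8 in ISO, and Rps28 2.57, 1.84 and 6.26 in saline and 0.393, 6.89 and 23.2 in ISO. For both genes ISO 3 was highest and ISO 1 lowest, the latter with 4 reads each. Rpl10a was steadier, at 5.89, 11.7 and 10.7 FPKM in saline and 8.30, 11.3 and 10.3 in ISO. Rpl32l was at 0 reads in saline 3 and ISO 1, where 3 reads would give 1.83 and 0.687 FPKM, and at 1.64 to 4.29 FPKM elsewhere. Ribosomal protein genes have many near-identical processed pseudogenes, and the sources used here do not state how reads shared with them were counted, so the level of any member is uncertain to that extent.

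**Figure D5:**
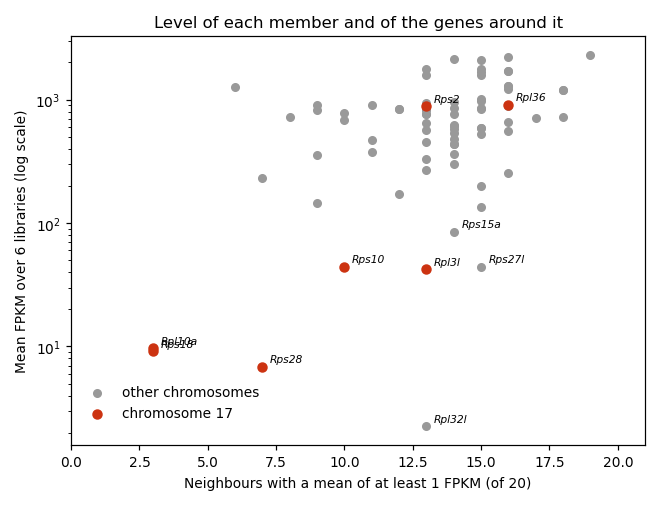
Mean FPKM of each of the 79 members (vertical, log scale) against the number of the 20 coding genes around it, 10 on each side, that reach 1 FPKM (horizontal). Red points are on chromosome 17. Rpl10a and Rps18 sit at 3 neighbours and under 10 FPKM, with Rps28 at 7, while Rps2 and Rpl36 on the same chromosome lie at 883 and 903 FPKM.

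The machinery around the ribosomal proteins was described with 8 gene lists, and limma called 0 of their 155 tested genes. With sample quality weights it called 10 of them, 5 of these among the TOP genes, against 6.26% of all tested genes. Fau and Rack1, genes of ribosomal proteins outside the symbol pattern, had log2 fold changes of -0.18 and -0.08, and of 0.35 and 0.61 without saline 3. Of 19 other translation genes with a 5′ TOP tract, 13 were above 0 (median 0.14), and 17 without saline 3 (median 0.27), when 11 had ISO above both remaining saline libraries, against 18.3% of all tested genes. Pabpc1, the poly(A)-binding protein, had 78.4, 98.4 and 91.5 FPKM in saline and 125, 146 and 189 in ISO. Its groups were separate with saline 3 inside its group, at a log2 fold change of 0.75 (SE 0.24, limma adjusted p = 0.699), and it was called with quality weights (0.78, adjusted p = 0.0261). Eif3k, a subunit of initiation factor 3, was at -0.39, and 0.03 without saline 3.

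Of 37 genes of 40S assembly, 27 were above 0 (median 0.20), and 23 without saline 3 (median 0.06). Of 42 genes of 60S assembly and export, 33 were above 0 (median 0.25), and 26 without saline 3 (median 0.14). The medians over all tested genes were 0.20 and 0.06. Heatr1, a factor of early rRNA processing, had a log2 fold change of 0.68 and Bysl, a late 40S factor, one of -0.61, with separate groups for both, and 0.49 and -0.44 without saline 3. In 60S assembly, Nol9 was at 0.53 and Wdr12 at -0.46, and at 0.53 and -0.27 without saline 3. Nol9 was called with quality weights (0.63, limma adjusted p = 0.0358). Of 19 genes of RNA polymerase I transcription, 11 were above 0 (median 0.07), and 8 without saline 3 (median -0.05), with Ttf1, which ends rRNA transcription, at 0.55 (0.37 without saline 3) and the shared polymerase subunit Polr2l at -0.81. Polr2l was at 106 FPKM in saline 3 and at 21.3 to 32.6 in the other libraries, and it had -0.16 without that library.

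Of 13 snoRNP protein genes, 5 were above 0 (median -0.02), and 8 without saline 3 (median 0.05). Dkc1, the pseudouridine synthase, was at 0.46 and Nhp2l1 at -0.65, and at 0.45 and -0.22 without saline 3. Of 17 genes of mTORC1 and of the control of ribosomal protein mRNA, 10 were above 0 with and without saline 3 (medians 0.16 and 0.02). Mlst8, an mTORC1 subunit, was at 0.91 and the La-related protein Larp4b at -0.91. Both extremes came with saline 3, where Mlst8 had 0.528 FPKM from 5 reads and Larp4b 75.4 FPKM, and the values were 0.29 and -0.03 without it. Of 5 tested paralogs, 3 were above 0 with and without saline 3. Rpl7l1 had 13.8, 13.2 and 13.1 FPKM in saline and 17.9, 17.6 and 17.3 in ISO, with separate groups and a log2 fold change of 0.37. Rpl36al had 323, 251 and 437 FPKM in saline and 185, 211 and 248 in ISO, with separate groups and a log2 fold change of -0.62. Without saline 3 the values were 0.36 and -0.42. Neither passed the test (limma adjusted p = 0.699 for both).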

How the data were processed

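Poly(A)-selected RNA of mouse left ventricle was sequenced in 6 libraries, 3 saline and 3 ISO. The authors deposited 1 table of FPKM per gene symbol. The submitters' processing notes name CASAVA 1.8, DESeq, Cufflinks 2.2.1, HTSeq 0.7.2, HISAT2 2.1.0 and fastp 0.20.0, with the build GRCm38; no settings are stated there. FPKM values of 16816 genes came out as whole reads (100% of those genes, within 0.0001), which gave lengths and library totals of 2776152 to 9862363 reads. Recovered reads and lengths served for shares, intervals, read counts, length classes, length correction, the check of libraries against sampling noise and a voom alternative. The main limma test did not use them.

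The 12269 genes that reached 1 FPKM on average were tested with limma 3.58.1 (R 4.3.3, trend) on log2(FPKM + 1), with Benjamini-Hochberg adjustment at 0.05 and no covariate; log2 fold changes on that scale understate changes of low genes. The script was tested on simulated data, where limma called 61% of 100 genes changed 4-fold and 90% of 100 changed 16-fold. It called 0.0663% of unchanged genes. Smaller changes may thus go uncalled. Paralog ratios had two-sided exact permutation tests (scipy 1.17.1). All 6 libraries differed by more than sampling noise and were counted separately. Same-numbered libraries did not deviate together (r of 0.01, -0.15 and -0.03). The replicate numbers are not said to pair libraries, and with 3 libraries per group these values cannot decide it.

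Members and lists were chosen with earlier results of these data known. The genes named are the 6 members of smallest p in each direction, the 8 of highest mean, the members of the small role groups, both genes of each paralog pair, the lowest members, and the gene of smallest p in each direction in each list; Rps4x, Rpl29, Rps23, Rpl24 and the low chromosome 17 genes were added after their values were seen. A few items are not reported here. Promoters, gene positions and neighbours came from RefSeq (GRCm38.p6). The motifs and neighbour counts were also added after the values were seen.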

Additional observations from a re-analysis of the deposited data

How the results depend on the processing

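The count of 0 called members was kept under all alternatives except limma's sample quality weights, which called 2. The median over members, -0.13, turned positive with quantile normalization (0.10), sample quality weights (0.14) and without saline 3 (0.19), and was -0.34 with median-of-ratios scaling and -0.43 with limma-voom on recovered reads. Without saline 3 and with median-of-ratios scaling, length correction or quantile normalization, settings chosen after seeing the data, it was 0.10, 0.12 and 0.17. So the sign of the members' median depends on the scaling and on 1 library, and no direction of the whole set is established. Of 79 members, 15 changed sign with median-of-ratios scaling, 29 with quantile normalization, 44 with quality weights, 12 with length correction, 16 with voom and 47 without saline 3. The replicate block called 0 members, and it changed no other call. In this balanced layout a block cannot alter any log2 fold change, so the unchanged median of -0.13 carries no information. Without ISO 1, 16 genes of the table were called, none of them members. List medians moved with the settings too: over the alternatives 40S assembly ranged from -0.06 to 0.29, 60S assembly from 0.05 to 0.27, RNA polymerase I from -0.20 to 0.12, snoRNP proteins from -0.25 to 0.12, mTORC1 from -0.08 to 0.30 and the TOP genes from -0.08 to 0.35. The cause of these changes was not tested.

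Named genes with the opposite sign, as log2 fold changes, were as follows. With quantile normalization: Rps15 0.15, Rpl28 0.20, Rpl26 0.14, Rpl35 0.28, Rpl41 0.21, Rpl13a 0.14, Rpl5 0.21, Rplp0 0.060, Rpl12 0.17, Rps27l -0.0097, Rpl39 0.059 and Rpl10 0.11. With quality weights: Rplp2 0.0063, Rps15 0.31, Rplp1 0.26, Rpl28 0.15, Rpl26 0.12, Rpl35 0.10, Rpl41 0.54, Rpl13a 0.14, Rpl5 0.37, Rplp0 0.55, Rps27l -0.072, Rps27 -0.18, Rpl22l1 -0.030, Rpl22 0.066, Rpl36a 0.0057, Rpl39 0.020, Rpl10 0.17, Eif3k 0.10 and Eif4a2 -0.19. With length correction: Rpl26 0.036, Rpl35 0.18, Rpl41 0.076, Rps27l -0.0026 and Rpl39 0.079. With voom: Rpl11 -0.23, Rpl3 -0.14, Rps27l -0.074, Rps27 -0.14, Rps4x -0.039 and Rpl29 -0.0039. With median-of-ratios scaling: Rpl11 -0.17, Rpl3 -0.058, Rps27l -0.17 and Rps27 -0.16.

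Leaving out each library in turn gave these ranges: Rps27l/Rps27 ratio -0.27 to 0.27, Rps15 -0.62 to 0.25, Rplp1 -0.94 to 0.15, Rpl28 -0.33 to 0.17, Rpl26 -0.24 to 0.15, Rpl35 -0.18 to 0.20, Rpl41 -0.45 to 0.47, Rpl13a -0.42 to 0.16, Rpl5 -0.27 to 0.35, Rpl11 -0.11 to 0.27, Rplp0 -0.54 to 0.42, Rpl12 -0.23 to 0.043, Rpl3 -0.10 to 0.46, Rps27l -0.25 to 0.23, Rps27 -0.12 to 0.21, Rpl22 -0.29 to 0.15, Rpl36a -0.58 to 0.061, Rpl39 -0.34 to 0.20, Rpl10 -0.27 to 0.21, Rpl32l -1.01 to 0.38, Rps28 -0.34 to 1.72 and Eif3k -0.61 to 0.029. The log2 difference in FPKM share, -0.07, ranged from -0.22 to 0.20. Depth limits Rps18, Rps28 and Rpl32l, with under 10 reads in at least 1 library.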

Other observations

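The genes of the series title were not members and are given by value only. Cpeb4, which binds cytoplasmic polyadenylation elements, had 4.45, 3.15 and 2.53 FPKM in saline replicates 1 to 3 and 2.47, 21.8 and 23.6 FPKM in ISO replicates 1 to 3. ISO 1 (140 reads) thus lay about level with saline 3 (54 reads) at the low end, and ISO 2 and 3 were the highest. The log2 fold change of Cpeb4 was 1.54 (SE 0.74, limma adjusted p = 0.699), and 1.39 without saline 3. Eif4a2, an RNA helicase of translation initiation, had 148, 115.1 and 54.4 FPKM in saline and 123, 115.3 and 160.1 in ISO, with a log2 fold change of 0.43 (SE 0.39) and of 0.01 without saline 3.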
